A study of Mus musculus with 20 samples.

Results

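Acyl-CoA thioesterases split activated fatty acids and other acyl-CoAs into the free acid and coenzyme A (CoA), and so set how much of each acyl-CoA a cell compartment holds. Mouse *Acot1*, *Acot2*, *Acot3*, *Acot4*, *Acot5* and *Acot6* are close relatives with an alpha/beta-hydrolase fold that act in the cytosol (*Acot1*), in mitochondria (*Acot2*) or in peroxisomes (the others), whereas *Acot7*, *Acot12* and *Acot13* have the unrelated hotdog fold. In liver several genes of the first group are known targets of PPAR alpha, the fatty acid receptor that switches on fat oxidation in fasting. The genes described here are *Acot1*, *Acot2*, *Acot3*, *Acot4*, *Acot7*, *Acot12* and *Acot13*. They were chosen because *Acot1* and *Acot3* are lower in KO liver, with earlier results of these data known. Each has 1 probe set assigned to it alone, so that all 7 were measured, among 25689 probe sets with values and 19661 genes.

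Whole liver RNA of untreated mice was hybridized to GeneChip Mouse Gene 1.0 ST arrays, 1 mouse on each of 20 arrays. The mice were 8 weeks old and of a mixed background of 129Pas x C57Bl/J, and were either *Crem*-/- (KO), lacking the cAMP-responsive transcription factor CREM, or wild type (WT). Livers were taken at the end of the light phase at 7 pm (12 h) or at its onset at 7 am (0 h), with 5 mice in each of the 4 groups. The KO mice at 12 h were 18, 55, 109, 110 and 166, the WT mice at 12 h were 111, 167, 168, 169 and 170, the KO mice at 0 h were 1, 76, 77, 143 and 144, and the WT mice at 0 h were 78, 80, 145, 146 and 147. Values of single mice are given below in this order within a group. All values are RMA-normalized log2 expression, a difference of 1 being a doubling, and no level of one probe set is set against another's. The labels do not say whether KO and WT mice were littermates.

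The 20 arrays correlated with each other at 0.969 to 0.994, with medians between 7.07 and 7.24. Batch 5 of the labels holds every 12 h array, so time and batch cannot be told apart, and batches 1, 2, 3 and 4 hold the 0 h arrays, each with both genotypes. *Crem* was lower in KO livers, at 7.39 to 7.83 against 7.90 to 8.02 in WT livers at 12 h and at 7.43 to 8.17 against 8.11 to 8.54 in WT livers at 0 h, where KO mouse 1 lay above WT mouse 80. The labels do not say which part of *Crem* was deleted or whether the probe set covers it. Of 11 clock genes used to check the time labels 10 were measured, and between 12 h and 0 h 10 of them changed in KO and 9 in WT livers. The 8 hepatocyte markers measured had mean log2 values of 11.6 to 14.3. In whole liver, fewer cells of a type and less RNA per cell cannot be told apart.

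*Acot2*, *Acot1*, *Acot4*, *Acot3*, *Acot5* and *Acot6* follow each other in this order on mouse chromosome 12, with no other measured protein-coding gene between them (RefSeq genes, assembly GRCm38.p6). The sequences before the start sites of the 4 cluster members, and of *Acot12*, are shown because these genes stood next to each other or changed most between the times. Of the 7 members, 6 had a promoter in the RefSeq table (*Acot13* had none), and the 250 bases before the start were read. Capitals mark every match, on either strand, to TGACGTCA (the CRE to which CREM binds), TGACG (the core of the CRE, contained in each full one), AGGTCA (the core element of nuclear receptors), CACGTG (the E-box of the clock proteins), TTATGTAA (the D-box of *Dbp* and *Tef*) and the DR1, a direct repeat of AGGTCA with a 1-base gap to which PPAR alpha binds and in which each copy is also an AGGTCA.
*Acot2*, chr12:83987611-83987860, plus strand: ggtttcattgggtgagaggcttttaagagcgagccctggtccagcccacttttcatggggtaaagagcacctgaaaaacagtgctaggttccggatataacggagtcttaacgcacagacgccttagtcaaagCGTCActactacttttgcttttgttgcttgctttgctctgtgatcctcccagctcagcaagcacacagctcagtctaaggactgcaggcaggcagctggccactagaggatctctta
*Acot1*, chr12:84009252-84009501, plus strand: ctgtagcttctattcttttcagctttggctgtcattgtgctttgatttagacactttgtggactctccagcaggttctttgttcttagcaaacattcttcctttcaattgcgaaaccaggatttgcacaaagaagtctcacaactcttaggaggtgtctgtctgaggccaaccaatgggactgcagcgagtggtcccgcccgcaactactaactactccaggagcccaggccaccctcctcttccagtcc
*Acot4*, chr12:84038129-84038378, plus strand: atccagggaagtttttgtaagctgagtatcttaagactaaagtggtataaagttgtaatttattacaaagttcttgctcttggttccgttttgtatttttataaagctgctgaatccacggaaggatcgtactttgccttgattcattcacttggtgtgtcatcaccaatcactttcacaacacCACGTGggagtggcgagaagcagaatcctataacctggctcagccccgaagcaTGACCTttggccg
*Acot3*, chr12:84051894-84052143, plus strand: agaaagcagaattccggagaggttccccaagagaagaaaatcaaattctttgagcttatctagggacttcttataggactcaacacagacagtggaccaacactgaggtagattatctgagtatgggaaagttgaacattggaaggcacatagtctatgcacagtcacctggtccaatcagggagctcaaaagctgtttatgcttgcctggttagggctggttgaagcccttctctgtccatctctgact
*Acot12*, chr13:91741271-91741520, plus strand: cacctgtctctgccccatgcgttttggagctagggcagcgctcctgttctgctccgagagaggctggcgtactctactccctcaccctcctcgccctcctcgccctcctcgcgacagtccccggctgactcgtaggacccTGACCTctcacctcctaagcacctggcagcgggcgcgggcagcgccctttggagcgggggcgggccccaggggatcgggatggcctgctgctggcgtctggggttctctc

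*Acot4* was the only member with an E-box, 66 bases before its start, and it also held AGGTCA on the opposite strand (TGACCT), 13 bases before the start. *Acot12* held AGGTCA on the opposite strand 110 bases before its start, and *Acot2* the CRE core on the opposite strand 117 bases before it. The windows of *Acot1*, *Acot3* and *Acot7* held none of these letters, and no member held a full CRE, a D-box or a DR1. Over all 32841 windows of this length the CRE core was found in 17.8%, AGGTCA in 14.0%, the E-box in 6.02%, the CRE in 1.55%, the D-box in 0.819% and the DR1 in 0.0335%. A match is a description of these letters only, and sequence outside the window was not searched.

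Over the light phase, *Acot4*, *Acot3*, *Acot12* and *Acot7* were higher at 12 h than at 0 h in WT livers, and *Acot4*, *Acot12* and *Acot7* were higher in KO livers. In WT livers 4 of 7 members were called higher and none lower, against 13.5% of all probe sets called higher (limma, adjusted p under 0.05 over 25689 probe sets). In KO livers 3 of 7 were called higher and none lower, against 10.6% of all probe sets. The median change of the members was 0.32 in KO and 0.36 in WT livers, where the median of all probe sets was -0.02 in KO and -0.03 in WT. This contrast was not used to choose the members. It uses the same arrays as the contrast that was, however, so it is not independent of that choice.

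*Acot4*, a peroxisomal enzyme that in mouse hydrolyses succinyl-CoA and dicarboxylic acyl-CoAs, changed most. Its log2 values were 10.16, 8.83, 9.45, 8.99 and 9.74 in KO livers at 12 h against 8.23, 7.85, 7.76, 7.69 and 8.31 in KO livers at 0 h. In WT livers they were 10.37, 9.91, 9.86, 9.73 and 10.04 at 12 h against 8.34, 8.07, 8.30, 8.20 and 8.59 at 0 h. Every 12 h liver of a genotype lay above every 0 h liver of the same genotype, and the lowest 12 h value of all, in KO mouse 55, was above the highest at 0 h, in WT mouse 147. The change was 1.47 in KO livers, or 2.76-fold (standard error 0.19, adjusted p = 9.79e-06), and 1.68 in WT livers, or 3.20-fold (standard error 0.19, adjusted p = 1.76e-06).

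*Acot3*, a peroxisomal enzyme that in mouse acts on longer-chain acyl-CoAs, passed the test in WT livers only, and the genotypes' changes were not called different. Its values in WT livers were 7.82, 7.09, 7.64, 7.34 and 7.72 at 12 h against 6.32, 6.65, 6.24, 6.43 and 6.56 at 0 h. All 5 WT livers at 12 h were above all 5 at 0 h, with a change of 1.08, or 2.12-fold (standard error 0.23, adjusted p = 0.00123). In KO livers its values were 7.92, 5.97, 6.84, 6.45 and 6.75 at 12 h against 6.05, 6.25, 6.37, 6.11 and 6.45 at 0 h. The KO groups overlapped through mouse 55, which was below every KO liver at 0 h, whereas KO mouse 18 was above every WT liver of either time. The change in KO livers was 0.54 (standard error 0.23, 95% interval 0.07 to 1.01, adjusted p = 0.0997). It was 0.26 without KO mouse 18, and 0.74 with an adjusted p of 0.0146 without KO mouse 55. Without both mice, left out after the values were seen, it was 0.44 with an adjusted p of 0.0519.

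*Acot12*, a cytosolic enzyme of the liver that releases acetate from acetyl-CoA, had values with little spread between mice. They were 11.48, 11.29, 11.47, 11.37 and 11.26 in KO livers at 12 h against 10.75, 10.63, 10.81, 10.93 and 10.80 in KO livers at 0 h. In WT livers they were 11.61, 11.42, 11.47, 11.50 and 11.66 at 12 h against 11.08, 10.81, 11.04, 11.07 and 10.95 at 0 h. The times did not overlap in either genotype. The change was 0.59 in KO livers, or 1.51-fold (standard error 0.07, adjusted p = 5.54e-06), and 0.54 in WT livers, or 1.45-fold (standard error 0.07, adjusted p = 1.59e-05).

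*Acot7*, a cytosolic enzyme for long-chain acyl-CoAs best known from brain, was at 8.94 to 9.07 in KO livers at 12 h against 8.52 to 8.95 in KO livers at 0 h, and at 9.04 to 9.19 in WT livers at 12 h against 8.62 to 8.84 in WT livers at 0 h. The KO groups overlapped through KO mouse 76 at 0 h, and the WT groups did not overlap. The change was 0.32 in KO livers (standard error 0.08, adjusted p = 0.00410) and 0.36 in WT livers (standard error 0.08, adjusted p = 0.00143). In all, the times did not overlap, with 12 h higher, for 2 of 7 members in KO livers and for 4 of 7 in WT livers. Of all probe sets, 8.87% in KO and 9.21% in WT livers did so in this direction.

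The remaining members did not pass. *Acot2*, the mitochondrial matrix enzyme, differed by -0.01 in KO livers (95% interval -0.33 to 0.31, adjusted p = 0.979) and by 0.31 in WT livers (95% interval -0.01 to 0.63, adjusted p = 0.137). *Acot1*, its cytosolic neighbour, differed by -0.09 in KO livers (95% interval -0.52 to 0.34, adjusted p = 0.807) and by 0.28 in WT livers (95% interval -0.15 to 0.71, adjusted p = 0.337). *Acot13*, a long-chain enzyme associated with mitochondria and also known as *Them2*, was at 9.67 to 10.03 in KO livers at 12 h against 9.74 to 10.002 in KO livers at 0 h, and at 9.94 to 10.09 in WT livers at 12 h against 9.80 to 10.15 in WT livers at 0 h. Its intervals were the narrowest of these 3, at -0.23 to 0.12 in KO and -0.17 to 0.18 in WT livers. Their upper ends lie below the changes of *Acot4* and *Acot12*.

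All 12 h arrays form 1 batch, and the spread of the batches at 0 h is given as a description. In a linear model with genotype and batch over the 10 arrays at 0 h, the largest difference between any pair of batches was 0.36 for *Acot4*, 0.24 for *Acot3*, 0.18 for *Acot12* and 0.17 for *Acot7*. For *Acot1* it was 0.41, for *Acot2* 0.26 and for *Acot13* 0.25. Each batch at 0 h holds few livers, so these differences also contain the spread between mice. They set no bound on a shift of batch 5. What batch 5 itself adds cannot be told apart from time.

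Markers of other liver cells also differed between the times. Of 7 Kupffer cell and macrophage markers, 2 fell in KO livers (median of the list -0.25) and 4 fell in WT livers (median -0.44), and none rose. Their mean level was 9.07 to 9.44 at 12 h against 9.21 to 9.68 at 0 h in KO livers, and 8.93 to 9.34 at 12 h against 9.38 to 9.71 at 0 h in WT livers. Of 7 sinusoidal endothelium markers, 2 rose in KO livers (median 0.18) and 3 rose in WT livers (median 0.25), and none fell. Over all probe sets, 9.69% were called lower and 10.6% higher in KO livers, and 14.3% lower and 13.5% higher in WT livers. The medians of the other lists lay between -0.29 and 0.06. The part of these shifts in the members' changes was not tested.

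**Figure D1:**
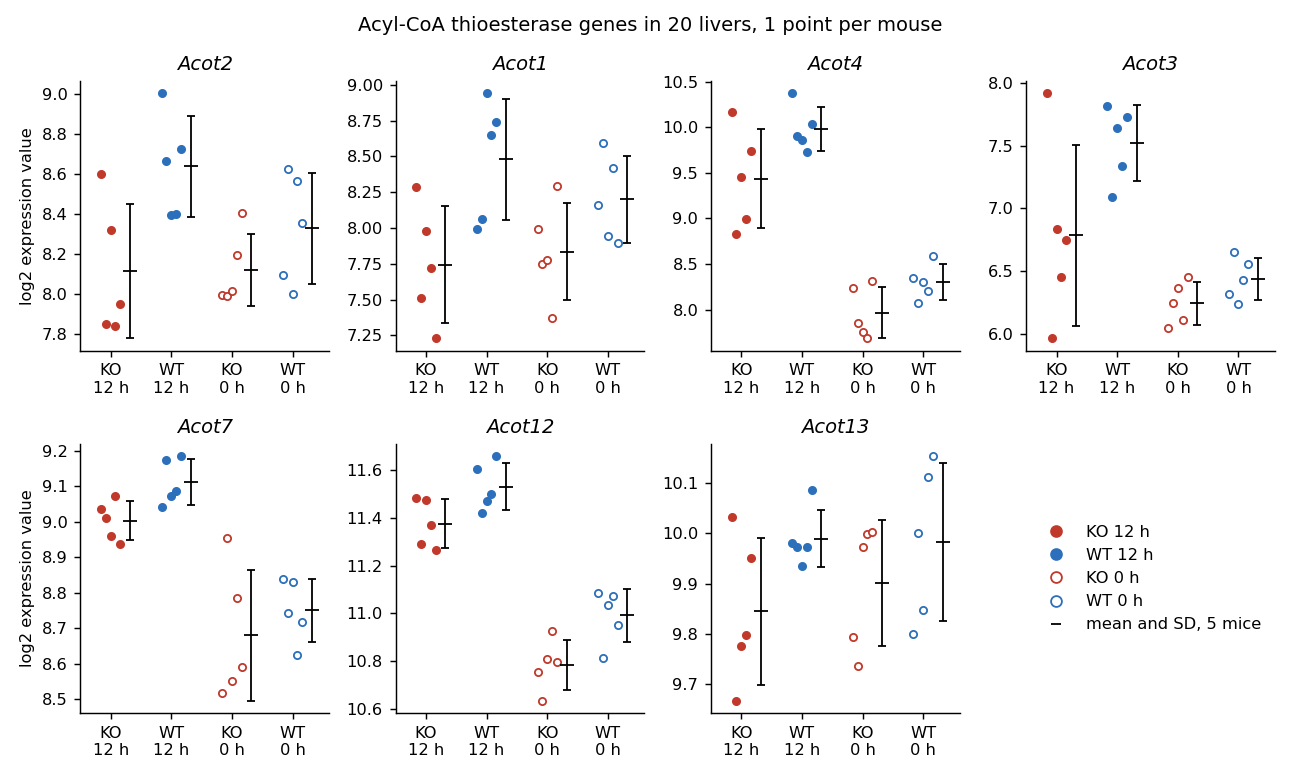
Log2 expression values of the 7 members, 1 point per mouse (red KO, blue WT, filled 12 h, open 0 h), with the mean and SD of 5 mice beside each group. *Acot4* and *Acot12* separate the times in both genotypes, and KO mouse 18 stands at the top and KO mouse 55 at the bottom of the KO group at 12 h for *Acot3* and *Acot4*.

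**Figure D2:**
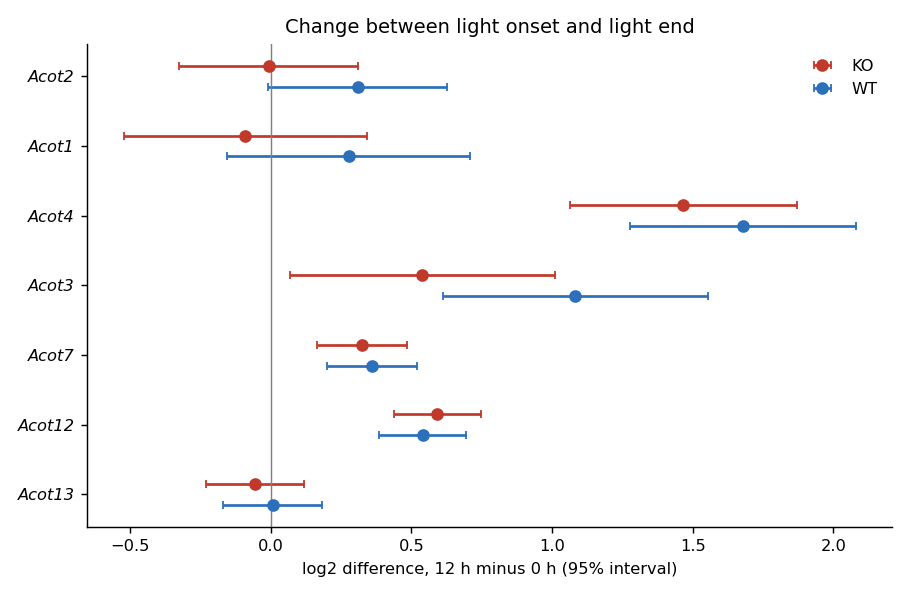
Log2 difference between 12 h and 0 h for each member in KO (red) and WT (blue) livers, with its 95% interval. The intervals of *Acot4*, *Acot3*, *Acot12* and *Acot7* lie above 0 in both genotypes, and those of *Acot1*, *Acot2* and *Acot13* include 0. The intervals are not adjusted for the number of probe sets, and *Acot3* was not called in KO livers (limma, adjusted p = 0.0997).

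All 7 members were lower on average in KO than in WT livers at both times. Because the members were selected on this contrast, the values are a description and carry no test. The median difference (KO minus WT) was -0.53 at 12 h and -0.21 at 0 h, where the medians of all probe sets were at 0.00 and 49.6% and 50.3% of them lay below 0. No member separated the genotypes at either time, where 1.24% of all probe sets at 12 h and 0.385% at 0 h did so with KO lower. By the limma test, 0.0234% of all probe sets differed between the genotypes at 12 h, 0.0117% over both times and 0% at 0 h.

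The 4 members of the chromosome 12 cluster had the largest differences at 12 h and over both times, but not at 0 h. *Acot1* values were 8.28, 7.51, 7.98, 7.72 and 7.23 in KO livers against 7.99, 8.06, 8.94, 8.65 and 8.74 in WT livers at 12 h. At 0 h they were 7.99, 7.75, 7.77, 7.37 and 8.29 in KO against 8.16, 8.59, 7.94, 8.42 and 7.89 in WT livers. At 12 h KO mouse 18 was the only KO liver above the lowest WT livers, those of mice 111 and 167, and at 0 h KO mice 1 and 144 overlapped with WT. The difference was -0.73 at 12 h (95% interval -1.16 to -0.30), -0.36 at 0 h (95% interval -0.80 to 0.07) and -0.55 over both times (95% interval -0.85 to -0.24), the last corresponding to a 1.46-fold lower level.

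*Acot3*, whose values are given above, differed by -0.74 at 12 h (95% interval -1.21 to -0.27), by -0.19 at 0 h (95% interval -0.67 to 0.28) and by -0.47 over both times. At 12 h 4 of the 5 KO livers lay below all WT livers, and KO mouse 18 lay above them all. The difference at 12 h was -1.02 without KO mouse 18 and -0.53 without KO mouse 55.

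*Acot2* values were 8.60, 7.85, 8.32, 7.84 and 7.95 in KO livers against 9.005, 8.67, 8.40, 8.40 and 8.72 in WT livers at 12 h. At 0 h they were 7.99, 7.99, 8.01, 8.20 and 8.41 in KO against 8.10, 8.62, 8.002, 8.57 and 8.35 in WT livers. KO mouse 18 again reached the WT range at 12 h, and the other 4 KO livers were below it. The difference was -0.53 at 12 h (95% interval -0.84 to -0.21), -0.21 at 0 h (95% interval -0.53 to 0.11) and -0.37 over both times.

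*Acot4* differed by -0.55 at 12 h (95% interval -0.95 to -0.14), by -0.33 at 0 h (95% interval -0.74 to 0.07) and by -0.44 over both times. Outside the cluster the differences at 12 h and over both times were smaller. Over both times they were -0.18 for *Acot12* (95% interval -0.29 to -0.07), -0.11 for *Acot13* (standard error 0.06) and -0.09 for *Acot7* (95% interval -0.20 to 0.02). At 0 h, however, *Acot12* differed by -0.21 (standard error 0.07), slightly more than *Acot3*.

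Within the 0 h batches the differences were uneven. Batch 3, with 1 KO and 2 WT livers, gave 0.03 for *Acot1*, 0.09 for *Acot2*, 0.01 for *Acot3*, 0.13 for *Acot4* and 0.08 for *Acot13*. Batch 1, with 2 KO and 1 WT livers, gave -0.85 for *Acot1*, -0.46 for *Acot2*, -0.19 for *Acot3* and -0.48 for *Acot4*. In batches 2 and 4, of 1 KO and 1 WT liver each, these 4 genes ranged from -0.10 (*Acot2*, batch 2) to -0.74 (*Acot4*, batch 4). *Acot12* was lower in KO livers in each of the 4 batches, with differences of -0.20, -0.33, -0.13 and -0.32 in batches 1 to 4, whereas *Acot7* gave 0.04, -0.32, -0.20 and 0.24. With the batch as a block the differences at 0 h were -0.30 for *Acot1*, -0.21 for *Acot2*, -0.18 for *Acot3*, -0.28 for *Acot4*, -0.06 for *Acot7*, -0.23 for *Acot12* and -0.10 for *Acot13*. At 12 h all livers share batch 5, and the differences above are within it.

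The difference was larger at 12 h than at 0 h for 6 of the 7 members, the exception being *Acot12*. For *Acot3* all values at 0 h, from 6.05 to 6.65, lay below the medians of the 0 h arrays, at 7.18 to 7.24. Whether a low signal narrows its difference at 0 h was not tested. The change over time differed between the genotypes (KO minus WT) by -0.54 for *Acot3* (95% interval -1.21 to 0.12), by -0.37 for *Acot1* (95% interval -0.98 to 0.24), by -0.32 for *Acot2* (95% interval -0.77 to 0.13) and by -0.21 for *Acot4* (95% interval -0.78 to 0.36). For *Acot7*, *Acot12* and *Acot13* it was between -0.06 and 0.05. These values moved with single mice. Without KO mouse 18 the value was -0.83 for *Acot3*, -0.50 for *Acot1*, -0.44 for *Acot2* and -0.39 for *Acot4*. Without KO mouse 55 it was -0.34 for *Acot3* and -0.06 for *Acot4*, and without KO mouse 166 it was -0.24 for *Acot1*. Over all probe sets 0 of 25689 (0%) passed this test in limma, whereas 1757 had an unadjusted p under 0.05.

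**Figure D3:**
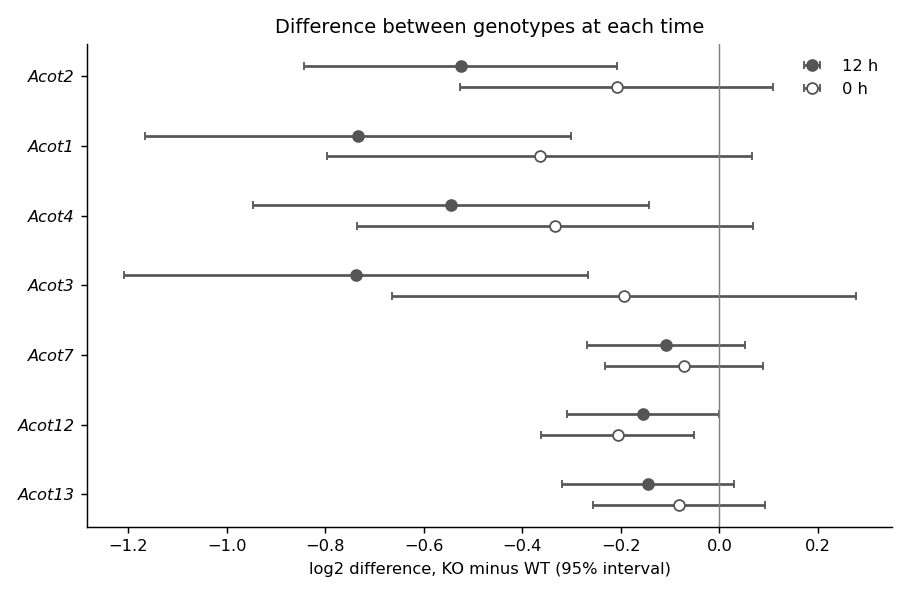
Log2 difference between KO and WT livers for each member at 12 h (filled) and at 0 h (open), with its 95% interval. All points lie below 0, and at 12 h those of *Acot2*, *Acot1*, *Acot4* and *Acot3* lie between -0.53 and -0.74. The members were chosen on this contrast.

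The same markers were read beside the differences between genotypes. All 7 sinusoidal endothelium markers were lower in KO livers over both times, with a median of -0.15 and a mean marker level of 9.53 to 9.83 in KO against 9.67 to 10.09 in WT livers at 12 h and of 9.49 to 9.72 in KO against 9.64 to 9.79 in WT livers at 0 h. Of 7 stellate cell markers 5 were lower (median -0.13), at 9.08 to 9.24 in KO against 9.31 to 9.38 in WT livers at 12 h and at 9.19 to 9.29 in KO against 9.21 to 9.34 in WT livers at 0 h. All 6 neutrophil markers were higher (median 0.08), but their mean log2 values of 4.78 to 6.33 lay below the medians of all arrays. Of 8 hepatocyte markers measured 6 were lower (median -0.03), where 49.3% of all probe sets lay below 0 over both times. The part of these shifts in the members' differences was not tested.

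Some of the members varied together between mice of a group, both within the cluster (*Acot1* less so) and outside it. At 12 h KO mouse 18 had the highest *Acot1*, *Acot2*, *Acot3* and *Acot4* value of the 5 KO livers, and at 0 h KO mouse 144 had the highest value of all 4 genes. WT mouse 80 had the highest *Acot1*, *Acot2* and *Acot3* value of the WT livers at 0 h but the lowest *Acot4* value. At 12 h WT mouse 111 had the highest *Acot2*, *Acot3* and *Acot4* value of the WT livers but the lowest *Acot1* value, and WT mouse 168 the highest *Acot1* but the lowest *Acot2* value. As a description, the deviations from the 4 group means over 20 mice correlated for *Acot3* and *Acot4* at r = 0.74 (Spearman's rho 0.51) and for *Acot2* and *Acot3* at r = 0.70 (rho 0.73). These points share arrays, batches and the RMA scale. The first relation rested on 2 mice and on 1 time, with r = 0.40 without KO mice 18 and 55, and r = 0.89 at 12 h against 0.02 at 0 h. The second was 0.53 without KO mouse 18 and WT mouse 111, and 0.77 at 12 h against 0.69 at 0 h. *Acot2* and *Acot4* gave 0.55 (0.82 at 12 h and -0.03 at 0 h), *Acot1* and *Acot3* 0.48, *Acot1* and *Acot2* 0.31 and *Acot1* and *Acot4* 0.14. Without KO mouse 18 alone these were 0.36 for *Acot2* and *Acot4*, 0.29 for *Acot1* and *Acot3*, 0.13 for *Acot1* and *Acot2* and -0.13 for *Acot1* and *Acot4*. Without WT mouse 111 alone, r was 0.52 for *Acot1* and *Acot2* and 0.29 for *Acot1* and *Acot4*. *Acot13* varied with *Acot2* (r = 0.61, and 0.58 without KO mouse 18 and WT mouse 111). With *Acot3* its r was 0.60, and 0.38 without KO mice 18 and 55. At 12 h r was 0.83 for *Acot4* and *Acot13* (0.03 at 0 h) and 0.79 for *Acot3* and *Acot13* (0.57 at 0 h). For *Acot2* and *Acot12* it was 0.72 at 12 h and -0.17 at 0 h. A high r at 12 h was therefore not particular to the cluster. Over all 20 mice *Acot7* had r between -0.35 (*Acot13*) and -0.08 (*Acot12*) with the other members. For *Acot7* and *Acot12* rho was 0.10, and at 12 h *Acot7* gave a positive r with *Acot1* (0.21), *Acot12* (0.13) and *Acot13* (0.12). The cluster members *Acot1*, *Acot2*, *Acot3* and *Acot4* are close paralogs. Signal that one of their probe sets takes from a neighbour's transcript cannot be told apart from its own here.

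**Figure D4:**
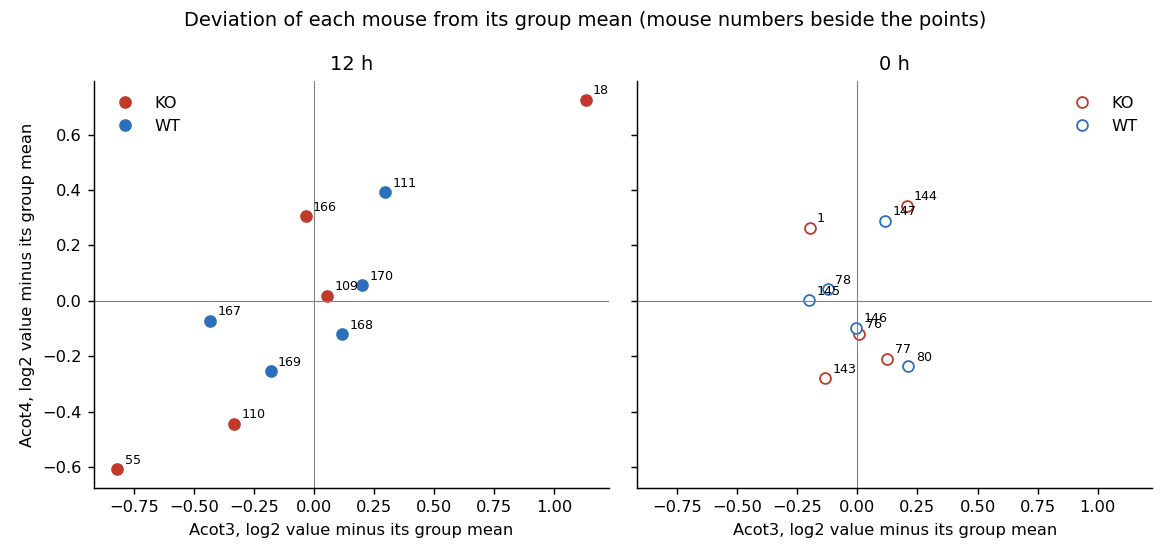
Deviation of *Acot4* against that of *Acot3* from the mean of each mouse's group, in log2 units, at 12 h (left) and at 0 h (right), red KO and blue WT, with mouse numbers. At 12 h the points run from KO mouse 55 at the lower left to KO mouse 18 at the upper right, whereas at 0 h they show no slope (r = 0.02).

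Over all measured genes, those whose deviations were most like a member's were mostly not thioesterases. For *Acot4* they were *Prkar1a*, a regulatory subunit of protein kinase A, and *Mmut*, the mitochondrial methylmalonyl-CoA mutase (r = 0.81 each). For *Acot3* they were *Sdr42e1* (r = 0.82) and *Cyb5a*, the electron donor cytochrome b5 (r = 0.81). For *Acot2* they were *Rnf186* and *Ces1f*, a liver carboxylesterase (r = 0.82 each), and for *Acot1* *Mfsd4b3-ps* (r = 0.85) and *Wrap53* (r = 0.82). *Acot13* was most like *Maob*, the monoamine oxidase B of the mitochondrial outer membrane (r = 0.89), and *Acsl5*, an acyl-CoA synthetase (r = 0.83). *Acot12* was most like the transcription factor gene *Yy1* (r = 0.86) and *Acot7* like *Mfsd7a* (r = 0.82), with the thioesterase gene *Olah* in the fifth place (r = 0.74). Over 20777 single-gene probe sets the highest r to another gene had a median of 0.83 (quartiles 0.80 and 0.86). Of the values named here, those of *Maob* with *Acot13* and of *Yy1* with *Acot12* lay above the upper quartile.

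The measured protein-coding neighbours of the cluster were read in their order on the chromosome, chosen after the values were seen. The 4 members stood between *Riox1*, with a KO minus WT difference of -0.20 at 12 h, and *Acot5*, with 0.45. *Acot5*, a peroxisomal medium-chain enzyme in mouse, was at 5.12 to 5.53 in KO livers against 4.64 to 5.09 in WT livers at 12 h, with no overlap and in the direction opposite to the 4 members. These values lay below the medians of the 12 h arrays, at 7.07 to 7.17. The share of all probe sets that separated with KO higher is not given here. Over time it differed by 0.02 in KO livers (adjusted p = 0.906) and by -0.30 in WT livers (adjusted p = 0.0504). *Acot6*, which in mouse acts on methyl-branched acyl-CoAs, had a KO minus WT difference of -0.10 at 12 h. Over time it differed by 0.20 in KO livers (adjusted p = 0.0577) and rose by 0.33 in WT livers (adjusted p = 0.00165). *Heatr4*, on the other side of *Riox1*, fell by 0.25 over time in KO livers (adjusted p = 0.0313) and fell by 0.55 in WT livers (adjusted p = 3.29e-05).

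**Figure D5:**
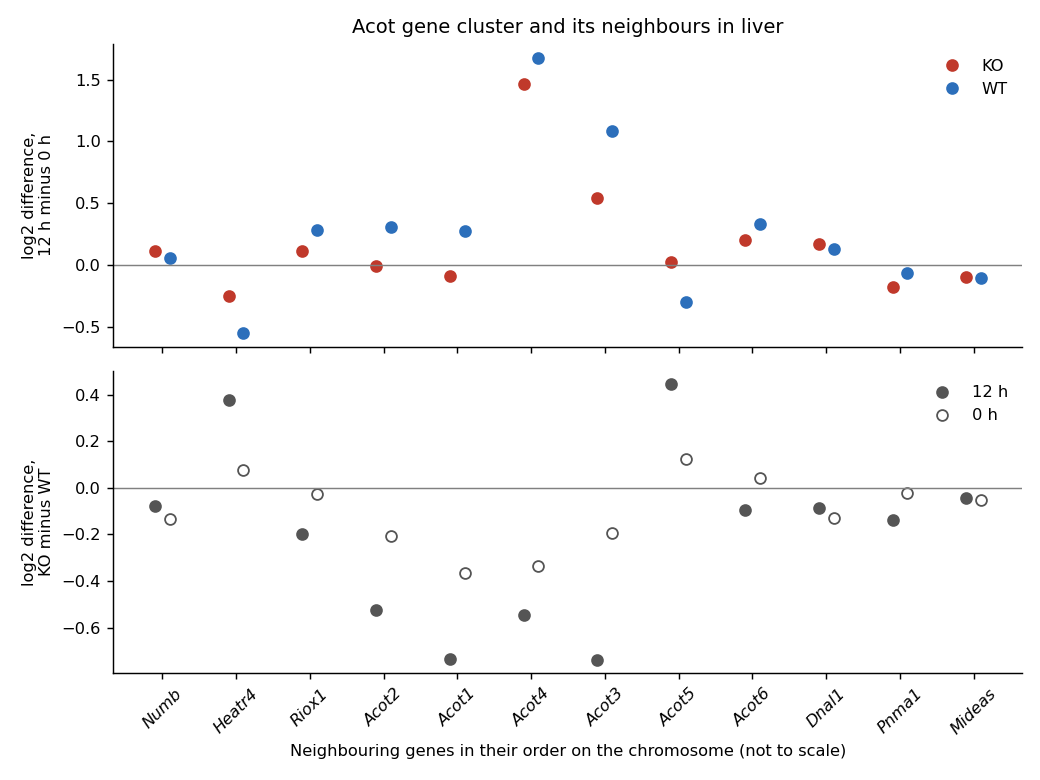
Log2 difference between 12 h and 0 h in KO (red) and WT (blue) livers (top) and between KO and WT livers at 12 h (filled) and 0 h (open) (bottom) for the cluster and its neighbours in chromosomal order, not to scale. *Acot4* and *Acot3* stand out in the upper panel, and *Acot2*, *Acot1*, *Acot4* and *Acot3* are the lowest in the lower panel at 12 h, next to *Acot5* at 0.45.

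Other thioesterases and the enzymes around the acyl-CoA pool were read from fixed lists. Over all probe sets, 10.6% were called higher and 9.69% lower over time in KO livers and 13.5% higher and 14.3% lower in WT livers, and 49.3% lay below 0 for KO minus WT over both times. Of 16 other thioesterase genes, 1 rose and 1 fell over time in KO livers and 4 rose and 1 fell in WT livers. *Acot11*, another hotdog-fold thioesterase, had the largest WT value at 0.58 (adjusted p = 0.0445), a call that was lost, with an adjusted p of up to 0.115, without each of KO mice 77 and 110 and WT mice 80, 145, 146, 147, 167, 168, 169 and 170. *Baat*, which joins bile acids to glycine or taurine, fell by 0.47 in KO livers (adjusted p = 0.000359) and fell by 0.41 in WT livers (adjusted p = 0.00114). The median KO minus WT difference over both times was -0.37, with 7 of 7 below 0, for the members, which were chosen on it, and -0.03, with 12 of 16 below 0, for this list. *Acot5* was highest at 0.28 and *Them4*, a mitochondrial thioesterase, lowest at -0.15.

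Acyl-CoA synthetases, which make the substrates of these enzymes, went both ways. Of 17 measured, 5 rose and 5 fell over time in KO livers, and 6 rose and 2 fell in WT livers. *Slc27a1*, a fatty acid transport protein with synthetase activity, rose by 0.31 in KO livers (adjusted p = 0.0104) and by 0.65 in WT livers (adjusted p = 6.43e-06), while *Acsm4* differed by -0.27 in WT livers (adjusted p = 0.118). The median genotype difference was -0.03, from -0.44 for *Acss3*, a propionyl-CoA synthetase of mitochondria, to 0.29 for *Aacs*, the cytosolic acetoacetyl-CoA synthetase. Of 15 genes of CoA synthesis and breakdown, 4 rose and 2 fell in KO livers and 5 rose and 1 fell in WT livers. Among them *Nudt7*, a peroxisomal CoA diphosphatase, fell by 0.31 in WT livers (adjusted p = 0.00122), and *Vnn1*, the pantetheinase that recycles a part of CoA, had the lowest genotype difference at -0.91.

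Known PPAR alpha targets gave the widest range. Of 35 measured, 9 rose and 4 fell over time in KO livers, and 10 rose and 4 fell in WT livers. The fatty acid omega-hydroxylase gene *Cyp4a31* rose by 1.28 in KO livers (adjusted p = 0.0282) and by 2.46 in WT livers (adjusted p = 0.000114). Its call in KO livers was lost, with an adjusted p of up to 0.0843, without each of KO mice 18, 76, 77, 109, 143 and 166. *Pdk4*, the kinase that holds back pyruvate oxidation, fell by 1.75 in KO livers (adjusted p = 1.92e-07) and fell by 1.10 in WT livers (adjusted p = 5.10e-05). Of the 35, 30 were lower in KO livers over both times, against 49.3% of all probe sets, with a median of -0.10, from -1.57 for *Cyp4a14* to 0.17 for *Cyp4a12a*. The *Cyp4a14* value was -1.24 without WT mouse 170 and -1.72 without WT mouse 169. The 4 cluster members lay between -0.37 and -0.55 on the same scale. *Ppara* itself, named after its values were seen, rose by 0.90 in KO livers (adjusted p = 1.77e-06) and by 0.83 in WT livers (adjusted p = 4.75e-06).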

How the data were processed

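The submitters deposited log2 expression values per probe set; per the labels the authors normalized the arrays by RMA (version not given). Both background correction and normalization are therefore already in the values, and no signal over background could be read. The paper at hand describes testis arrays and not these livers, and its methods were not taken for them. Of 35557 probe sets, 9868 without values were left out. Names came from the platform annotation, joined to RefSeq genes of GRCm38.p6 (0 symbols changed); 232 probe sets with several genes and 4680 with none were tested but not named.

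Values were fitted in limma 3.58.1 (R 4.3.3) with 4 group means over all 20 arrays, and p-values were adjusted over 25689 probe sets by Benjamini-Hochberg. The fit was tested on simulated data: of 100 probe sets changed by 0.5 (log2) among 25689, 70% were recovered for time in KO, 72% for time in WT and 27% for the difference of the time change. Far fewer probe sets were changed there than were called over time in the data (5211 in KO and 7144 in WT livers). The simulated noise was independent and without batches. These shares therefore need not hold for the time tests on the data. Intervals are at 95%. Marker levels are means of log2 values. For likeness, the 5 genes with the highest r per member were listed, and from each gene list the highest and lowest were named; a gene with several probe sets was read from its brightest. The members and lists were chosen with earlier results of these data known. The number of mice limits the precision. Alternatives were quantile normalization, centring each array on its median, only brighter probe sets, limma's trend and robust options, weighting of arrays, the batch as a block, only the arrays compared, and leaving out each mouse.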

Additional observations from a re-analysis of the deposited data

How the results depend on the processing

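Of 390 values of the members' changes over time under these alternatives, 373 kept their direction and side of the threshold, 0 lost the call, 2 passed it in addition and 15 changed sign. The 2 were *Acot3* in KO livers without mouse 55 (0.74) and with array weights (0.61, adjusted p = 0.0475). The sign changes were in values near 0. For *Acot13* in WT livers quantile normalization gave -0.0489 and array weights -0.00504, for *Acot2* in KO livers centring gave 0.0521 and array weights 0.0350, and for *Acot13* in KO livers centring gave 0.00344. Leaving out each mouse gave -0.0392 to 0.0493 for *Acot13* in WT, -0.225 to 0.0384 for *Acot1* in KO and -0.129 to 0.0638 for *Acot2* in KO livers. The 578 genotype values were all below 0, and none moved by over 1 SD. They are refits of the same arrays on the contrast by which the members were chosen, so their shared sign is a description only. The difference of the time change of *Acot7* ran from -0.08 to 0.03 when a mouse was left out, and the r of *Acot1* and *Acot4* from -0.13 to 0.29.

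Between genotypes at 12 h, 6 probe sets were called, against 2 with quantile normalization, 23 with centring, 23 among brighter probe sets, 11 with the intensity trend, 2 with array weights, 3 with the batch as a block, 0 with only the arrays compared and 1 without KO mice 18 and 55 (added after seeing the data). Leaving out each mouse gave 1 (KO mouse 55) to 37 (WT mouse 167). Over both times 3 were called, 1 among brighter probe sets, and 2 to 9 when a mouse was left out (9 without WT mouse 167). Over time in KO livers 2722 probe sets were called higher and 2489 lower, against 3676 and 1603 with centring, and in WT livers 3462 and 3682, against 5294 and 1995. Centring moved the median of all probe sets by 0.06 in KO and 0.09 in WT livers. *Acot3* fell below the median brightness and has no value among brighter probe sets. No paired analysis was possible because no mouse number occurs in more than 1 group. Signal over background was not assessed, and close paralogs may share signal.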
